A study of Mus musculus with 2 samples.

Results

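The Kera and Col15a1 fibroblasts of the mouse lacrimal gland at postnatal day 4 (P4) were 88 cells of the P4 library, which held 687 barcodes, while both libraries of the series together held 1124. They were chosen by their transcripts. A barcode needed at least 200 detected genes and a haemoglobin share under 50%, which left 394 P4 cells. Of these, 183 were called mesenchyme, because transcripts of Col1a1, Col1a2, Col3a1, Dcn, Lum and Pdgfra made up at least 0.3% of the cell and outnumbered 8 epithelial transcripts, and because mural, endothelial and immune transcripts were nearly absent. Within the mesenchyme, a cell was taken when its summed UMIs (unique molecular identifiers, a tag added to every captured transcript before amplification) of Kera, Col15a1 and Lect1 exceeded those of Ly6a, Pi16 and Dpt. The reverse excess gave 78 P4 cells, called the Ly6a fibroblasts here, and 17 cells had no excess either way, 12 of them without a UMI of any of the 6 genes.

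The series profiled single cells from the lacrimal gland of wild-type mice of the outbred CD1 strain, with no treatment and no altered allele in either group. Glands were pooled and digested with Liberase and DNase, and cells were barcoded in droplets. The Kera and Col15a1 and the Ly6a fibroblasts came from P4, and the earlier stage, embryonic day 16 (E16), gave 97 mesenchyme cells by the same criteria. Each stage was 1 library, so stage and library cannot be told apart, there was no replicate check and no p-value is given. How many animals a pool held is not stated by the labels.

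Fibroblasts lay down the collagen, proteoglycan and elastic fibre network around gland ducts and acini. They also release growth factors, protease inhibitors and chemokines that act on the epithelium, vessels and immune cells nearby. Keratocan, the product of Kera, is a small leucine-rich proteoglycan best known from the cornea, where it helps to space collagen fibrils. Collagen XV, the product of Col15a1, links basement membranes to the fibrils beneath, and Lect1 encodes chondromodulin, known from cartilage as an inhibitor of vessel growth. Dpt, Pi16 and Ly6a mark, in adult mouse organs, fibroblasts that lie along larger vessels and in connective tissue sheaths.

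The 88 cells held 373200 UMIs, with a median of 4083 per cell and a range of 1367 to 12870. The 78 Ly6a fibroblasts held 407316 UMIs with a median of 5375.5, and the 97 E16 mesenchyme cells held 636478 with a median of 6188. Kept cells of any type ranged from 715 to 64020 UMIs in P4 and from 852 to 31749 in E16, and the libraries shared 0 barcodes. Levels below are UMIs summed over a group per 1000000 of its UMIs (CPM). Every interval is an exact 95% interval for counting error, and it leaves out differences between cells and between animals.

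Of the choosing genes, Kera and Col15a1 were both detected in 70 of the 88 cells, Kera alone of the 3 in 5, Col15a1 alone in 10 and Lect1 alone in 1. All 3 were found in 25 cells. Of the cells, 29 also held a UMI of Ly6a, Pi16 or Dpt. The excess over those genes had a median of 7 UMIs and was at least 10 in 32 cells.

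Levels near the threshold are given as a description, and those of Kera and Col15a1 follow from how the cells were chosen. The 9 cells with an excess of 1 UMI had Kera at 29.5 CPM and Col15a1 at 266 CPM, and Crabp1, a retinoic acid binding protein that was not used in choosing, at 29.5 CPM. The 58 cells with an excess of at least 5 had Kera at 1618 CPM, Col15a1 at 750.4 CPM and Crabp1 at 754 CPM. Just outside, the 17 cells with no excess had Kera at 146 CPM, and the 7 cells that were 1 UMI short had Kera at 747 CPM. Serpine2, a protease inhibitor gene, was at 1919 CPM in the 9 cells next to the threshold and 332 CPM in the 58 cells furthest inside. Among the 9 cells, 2 carried glial transcripts and held 46.2% of their UMIs. Without these, the other 7 cells had Kera and Crabp1 each at 54.9 CPM, from 1 UMI each, Col15a1 at 384 CPM and Serpine2 at 1483 CPM.

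**Figure D1:**
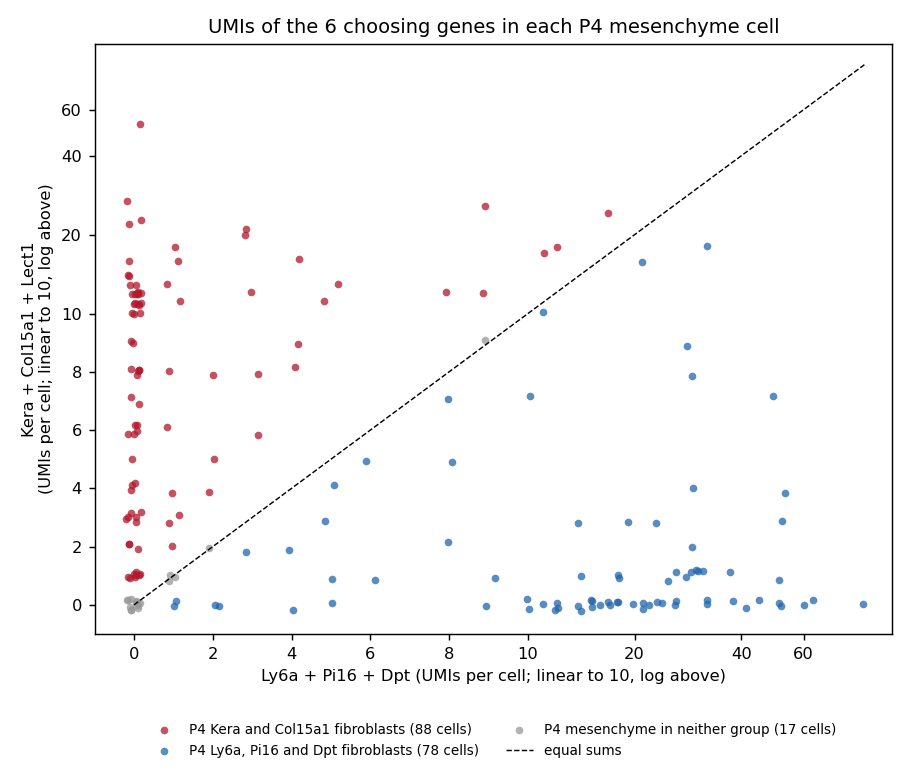
Each point is 1 of the 183 P4 mesenchyme cells, placed by its summed UMIs of Ly6a, Pi16 and Dpt (x axis) and of Kera, Col15a1 and Lect1 (y axis), with a small random shift so that points do not hide each other. Most of the 88 chosen cells (red) stand on the left edge with no UMI of the opposing genes, while 29 carry at least 1, and the 17 cells in neither group (grey) lie on the dashed line of equal sums.

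When 1 of the 3 genes was left out of the choice, its own level differed between the sides. Chosen by Kera and Lect1 alone, 73 P4 cells had Col15a1 at 672 CPM, against 116 CPM in the 84 cells of the opposing side, a ratio of 5.79 (4.23 to 8.04). Chosen by Col15a1 and Lect1 alone, 69 cells had Kera at 1258 CPM, against 452 CPM in 92 opposing cells (2.78-fold higher, 2.34 to 3.31). Chosen by Kera and Col15a1 alone, 87 cells had Lect1 at 321 CPM, against 9.66 CPM in 79 opposing cells (33.3-fold higher, 12.7 to 124). Each of the 3 genes was higher in cells picked by the others. The 3 genes were set together with these data known, against the same opposing genes, so these values are a description and no support for the group.

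The 8 marker genes given for these cells were all detected. Kera was found in 85.2% of the 88 cells, against 34.6% of Ly6a fibroblasts. Among P4 cells that should lack it, Kera was found in 2.94% of the 68 epithelial cells, whose median depth was 3301 UMIs, and in 7.27% of the 55 macrophages, whose median depth was 2943 UMIs. Its level was 1299.6 CPM in the Kera and Col15a1 fibroblasts, 253 CPM in Ly6a fibroblasts and 729 CPM in E16 mesenchyme. Col15a1 was found in 93.2% of the cells, and its level was 651 CPM, against 88.4 CPM in Ly6a fibroblasts and 173 CPM in E16 mesenchyme. Endothelial cells of P4 also carried Col15a1, at 198 CPM. Lect1 was less frequent, in 31.8% of the cells, and 1 cell held 29.8% of its 121 UMIs. It stood at 324 CPM, against 7.37 CPM in Ly6a fibroblasts and 18.9 CPM in E16 mesenchyme, but P4 epithelium also had it, at 146 CPM.

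The other 5 markers were not used in choosing, and they differed in what they set apart. Steap4, which encodes a metalloreductase, and Enpp2, which encodes the lysophosphatidic acid producing enzyme autotaxin, were higher than in Ly6a fibroblasts, at 247 against 58.9 CPM for Steap4 and 161 against 31.9 CPM for Enpp2. C1s1, a complement protease gene, stood at 354 CPM, against 191 CPM in Ly6a fibroblasts and 44.0 CPM in E16 mesenchyme. Islr, an immunoglobulin and leucine-rich repeat gene of mesenchymal cells, was at 490.4 CPM and the secreted protease gene Htra1 at 785 CPM. Ly6a fibroblasts had 427 CPM of Islr and 636 CPM of Htra1, under 2-fold away, and E16 mesenchyme had 149 and 173 CPM. C1s1, Islr and Htra1 were thus shared by both kinds of P4 fibroblast, while Enpp2 was near its E16 level of 145 CPM.

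**Figure D2:**
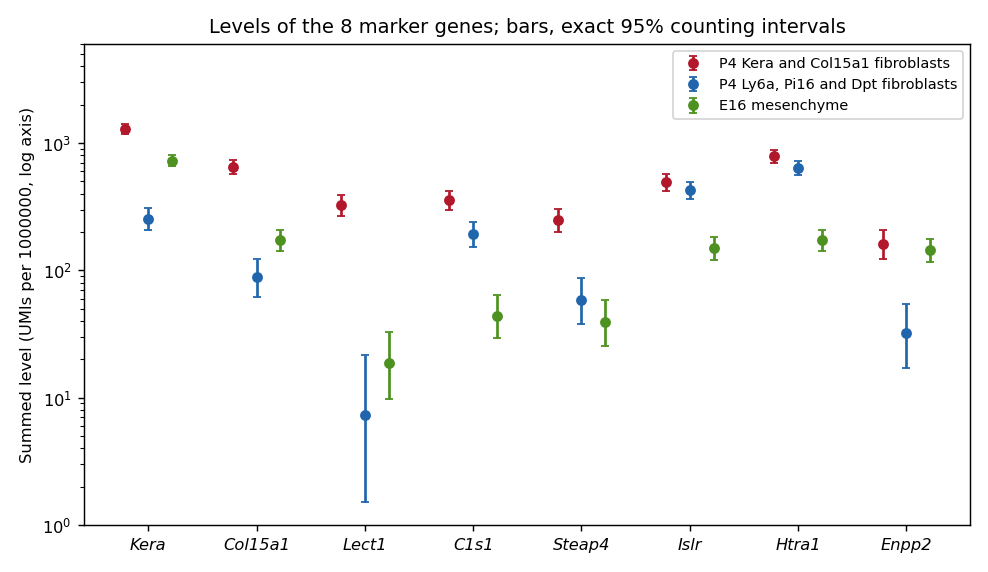
Summed levels of the 8 marker genes (UMIs per 1000000, log axis) in the 88 P4 Kera and Col15a1 fibroblasts, the 78 P4 Ly6a, Pi16 and Dpt fibroblasts and the 97 E16 mesenchyme cells, with exact 95% counting intervals. The red points of Islr and Htra1 stand close to the blue ones and well above the green ones, while for Enpp2 red and green lie together above blue.

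Col15a1 (ENSMUSG00000028339) lies on chromosome 4 from 47208161 to 47313167 on the plus strand of GRCm38, the mm10 build of the files. Lect1 (ENSMUSG00000022025, named Cnmd in the annotation) lies on chromosome 14 from 79637690 to 79662170 on the minus strand, and C1s1 (ENSMUSG00000038521) on chromosome 6 from 124530345 to 124542359 on the minus strand. Crabp1 (ENSMUSG00000032291), the gene that led the comparison with Ly6a fibroblasts below, lies on chromosome 9 from 54764748 to 54773110 on the plus strand. The 250 bases before the RefSeq start of these genes (GRCm38.p6, 5′ to 3′ along each gene) are shown because none of these windows overlaps an annotated exon. The windows are chr4:47207762-47208011 (plus strand) for Col15a1, chr14:79662184-79662433 (minus strand) for Lect1, chr6:124542360-124542609 (minus strand) for C1s1 and chr9:54764498-54764747 (plus strand) for Crabp1.
Col15a1: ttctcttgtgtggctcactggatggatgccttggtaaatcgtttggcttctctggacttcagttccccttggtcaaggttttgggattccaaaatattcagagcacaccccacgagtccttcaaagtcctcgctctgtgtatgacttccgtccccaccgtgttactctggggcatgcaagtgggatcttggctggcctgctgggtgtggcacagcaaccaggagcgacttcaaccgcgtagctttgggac
Lect1: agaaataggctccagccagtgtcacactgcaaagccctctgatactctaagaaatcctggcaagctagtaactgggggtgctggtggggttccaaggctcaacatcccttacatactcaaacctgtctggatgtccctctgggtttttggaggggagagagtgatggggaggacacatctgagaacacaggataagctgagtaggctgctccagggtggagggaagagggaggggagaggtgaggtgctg
C1s1: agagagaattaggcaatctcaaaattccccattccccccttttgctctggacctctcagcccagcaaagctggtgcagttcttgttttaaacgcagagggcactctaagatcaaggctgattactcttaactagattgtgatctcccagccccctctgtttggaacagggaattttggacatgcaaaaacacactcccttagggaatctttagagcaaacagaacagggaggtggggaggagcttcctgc
Crabp1: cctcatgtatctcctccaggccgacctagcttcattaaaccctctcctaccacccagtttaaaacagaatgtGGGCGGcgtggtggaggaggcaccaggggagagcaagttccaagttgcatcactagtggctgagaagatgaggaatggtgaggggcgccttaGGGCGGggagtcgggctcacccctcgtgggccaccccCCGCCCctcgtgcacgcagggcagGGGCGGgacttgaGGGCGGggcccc
Capitals mark GGGCGG or its reverse complement, of which the Crabp1 window held 5 matches and the other windows none. The TATAAA motif, the CCAAT motif, the CACGTG motif and the TTCNNNGAA motif, searched on both strands, were found in none of the 4 windows shown. Windows of Kera, C1ra and Steap4 and a second window of C1s1 were also searched, but they overlapped an annotated exon and are not shown. Of these, the Kera window held 3 CCAAT matches, and the Steap4 window held 1 TATAAA and 1 TTCNNNGAA match. Over the 32851 mouse windows of that length, GGGCGG was found in 32.74%, CCAAT in 33.85%, TATAAA in 12.37%, TTCNNNGAA in 7.02% and CACGTG in 6.021%. A match is only a run of letters, and the data hold no measure of binding.

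The comparison with Ly6a fibroblasts of the same library describes how the 2 kinds of P4 fibroblast differed. That contrast chose the cells, so its values are a description and support nothing further. Of 3688 genes with at least 30 UMIs over both groups, 339 were at least 2-fold higher in the Kera and Col15a1 fibroblasts (9.19%) and 272 at least 2-fold lower (7.38%). The median log2 ratio of all these genes was 0.13. With size factors from medians of ratios, the split was 264 higher and 349 lower, and with each cell thinned to 1000 UMIs it was 79 higher and 101 lower of 999 genes.

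Crabp1, which encodes a cytosolic retinoic acid binding protein, was the first gene by the naming rule. It had 227 UMIs in 56 of the 88 cells, or 608 CPM, against 20 UMIs in 14 Ly6a fibroblasts, or 49.1 CPM. That is 12.4-fold higher (7.83 to 20.7), and P4 epithelium, macrophages and endothelium had 0 UMIs of it. Hopx, a homeodomain-only protein gene, was found in 67.0% of the cells, against 17.9% of Ly6a fibroblasts, and was 5.85-fold higher (3.80 to 9.36). Cdo1, which encodes cysteine dioxygenase, was at 378 CPM, against 81.0 CPM (4.66-fold higher, 3.17 to 7.04), and 1 of the 88 cells held 23.4% of its UMIs. Col26a1, a collagen chain gene, was at 169 CPM, against 22.1 CPM (7.64-fold higher, 3.78 to 17.5). These 4 genes stood within 2-fold of their levels in E16 mesenchyme, where Crabp1 was at 372 CPM, Hopx at 248 CPM, Cdo1 at 399 CPM and Col26a1 at 174 CPM.

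Other genes named as higher encode proteins of several kinds. Serpine2, which encodes the thrombin and plasminogen activator inhibitor protease nexin, was at 669.9 CPM, against 128 CPM (5.25-fold higher, 3.88 to 7.22), and 1 cell held 18.4% of its UMIs. The 17 P4 mesenchyme cells in neither group had more of it, at 943 CPM. Angpt2, a ligand of the endothelial receptor Tie2, had 34 UMIs, against 2 (18.6-fold higher, 4.76 to 159). F3, which encodes tissue factor, the starter of clotting, was at 161 CPM, against 29.5 CPM, and 1 cell held 20% of its UMIs. The wide interval of Angpt2 follows from its few UMIs. P2ry14, a receptor gene for UDP-sugars, was at 201 CPM, against 41.7 CPM, and G0s2, an inhibitor of fat breakdown, at 252 CPM, against 54.01 CPM. Ndufa4l2, a mitochondrial protein gene, was at 204 CPM, against 14.7 CPM. The remaining genes named as higher were Sbspon, Imp3, Fam212a and Enpp2, between 5.04-fold and 7.64-fold. For Sbspon, 1 cell held 22.9% of the UMIs.

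Genes named as lower were led in UMIs by matrix genes. Cthrc1, a secreted collagen triple helix repeat protein gene, was at 91.1 CPM in the Kera and Col15a1 fibroblasts, against 1834 CPM (20.1-fold lower, 14.3 to 29.3). Mfap4, of the elastic microfibril, was at 50.9 CPM, against 1041 CPM (20.4-fold lower, 12.9 to 34.3). Mfap5, another microfibril gene, had 305 UMIs, against 2234, and was 6.71-fold lower (5.95 to 7.59). Dpp4, a surface peptidase gene, had 6 UMIs, against 72, and the ligand gene Wnt2 had 2, against 51. Ly6c1 had 18 UMIs, against 231. It is a close paralog of the choosing gene Ly6a, and how reads that match both were counted was not tested. Akr1c18, Olfml2b, Nov, Qpct, Fndc1, Pdgfrl, Krtdap, Anxa3 and the protease gene Htra3 were the other named genes, between 5.41-fold and 46.7-fold lower.

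**Figure D3:**
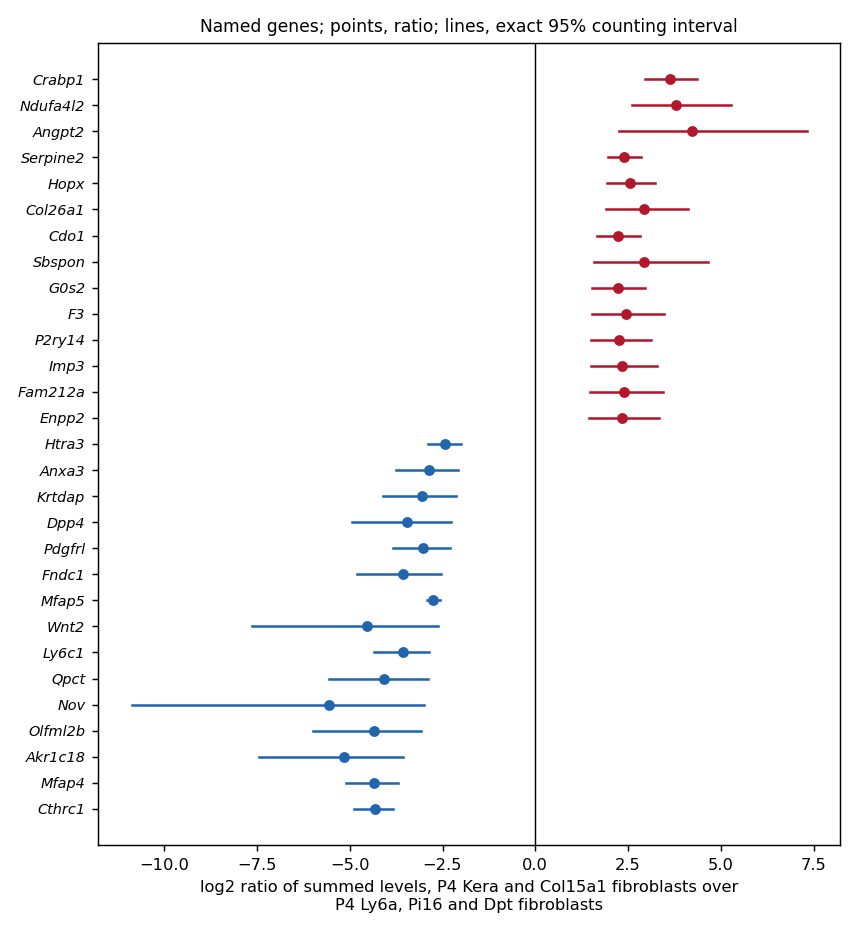
Named genes, 14 higher and 15 lower, by their log2 ratio of summed levels, P4 Kera and Col15a1 fibroblasts over P4 Ly6a, Pi16 and Dpt fibroblasts, with exact 95% counting intervals. Crabp1 and Serpine2 have narrow intervals above 0 and Mfap5 and Cthrc1 below 0, while Angpt2, with 2 UMIs in Ly6a fibroblasts, and Nov, with 1 UMI in the Kera and Col15a1 fibroblasts, span several units.

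Matrix genes were described by list. Among all genes, 9.19% were at least 2-fold higher than in Ly6a fibroblasts and 7.38% as far lower. Of 17 measured genes of fibrillar collagens and their modifiers, 7 were at least 2-fold lower than in Ly6a fibroblasts and 1 higher, with a median log2 ratio of -0.75. Col1a1 was at 5691 CPM, against 12175 CPM, and Col3a1 was 2.52-fold lower (2.41 to 2.64), both being genes the mesenchyme criteria used. Plod1, a collagen lysyl hydroxylase gene, was the member at least 2-fold higher (2.34-fold, 1.37 to 4.13). Of 18 elastic fibre and crosslinking genes, 11 were at least 2-fold lower and 1 higher, with a median of -1.12. Loxl1, which encodes a lysyl oxidase that crosslinks elastin, was 5.17-fold lower (3.85 to 7.06), and Efemp1 4.88-fold lower (3.68 to 6.55). Emilin1, an elastin microfibril interfacer gene, was 3.46-fold higher (2.14 to 5.80). Fibrillar and elastic genes thus lay below the median of all genes, with Plod1 and Emilin1 the genes past 2-fold the other way.

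Basement membrane genes did not share that pattern. Of 14 measured genes, 2 lay at least 2-fold higher and 1 as far lower, with a median of 0.15, near that of all genes. The shares over all genes were 9.19% and 7.38%. The 2 higher genes were Col15a1, used in choosing, and Col18a1, its relative among the multiplexin collagens, at 163 CPM, against 51.6 CPM (3.17-fold higher, 1.90 to 5.48). Sparc, a matricellular protein gene, was the lower one, at 4009 CPM, against 8269 CPM. Network, beaded and fibril-associated collagens had a median of 0.04 over 8 genes, where Col26a1 was higher and Col14a1 and Col6a6 lower.

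Kera lies within a row of small leucine-rich proteoglycan genes on chromosome 10, from 97606879 to 97613692 on the plus strand, with Lum from 97565128 to 97572703 and Dcn from 97479609 to 97518143. Of the 7 measured genes of this family, Kera was at least 2-fold higher than in Ly6a fibroblasts, and Ogn and Aspn were at least 2-fold lower. Over all genes the shares were 9.19% higher and 7.38% lower. Dcn, which encodes decorin, was at 8966 CPM, against 13260.0 CPM (1.48-fold lower, 1.42 to 1.55), and Lum, which encodes lumican, was 1.63-fold lower (1.51 to 1.77). The choice of cells fixed the side of Kera, and Dcn and Lum were among the mesenchyme criteria. Of 5 measured corneal keratocyte and scleral genes, 1 was at least 2-fold higher, Kera itself, and 1 lower, Cd34.

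Signalling genes are given by list, beside the 9.19% of all genes that were at least 2-fold higher and the 7.38% that were as far lower. Rspo1, a secreted Wnt amplifier, was 4.002-fold higher (1.87 to 9.51) and the Wnt antagonist Sfrp1 2.16-fold higher (1.52 to 3.10), while Sfrp4 had 2 UMIs, against 107. Of 8 measured Wnt genes, 2 were at least 2-fold higher and 3 lower. Id1 and Id3, which are induced by BMP signals, were 2.60-fold (1.32 to 5.42) and 2.56-fold (2.16 to 3.05) higher. Lect1, whose side the choice of cells fixed, was the other higher gene of the BMP and TGF-beta list, against 2 lower of 10 measured. Spry1, a feedback inhibitor of FGF receptors, was 2.46-fold higher (1.42 to 4.39), the 1 of 6 measured FGF genes past 2-fold, a share close to that of all genes. Of 9 insulin-like growth factor genes, Igfbp7 was higher, at 3537 CPM, against 1719 CPM, and Igfbp5, Igfbp6 and Igf2 were lower. Transcription factors of periocular and limb mesenchyme had 3 genes higher (Osr2, Tcf4 and Msx1) and 3 lower (Twist1, Prrx1 and Klf2) of 19. Msx1 rested on 21 UMIs, of which 1 cell held 33.3%.

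Serpine2 was the 1 higher gene of 16 measured matrix proteases and inhibitors, and 5 were lower, among them Htra3, Mmp23 and Serpinf1. Over all genes the higher share was 9.19% and the lower share 7.38%. Of 10 measured complement genes, 1 was higher (Cd59a, a membrane inhibitor), a share near that of all genes, and 2 were lower (Serping1, the inhibitor of C1 proteases, and Cd55). Cxcl13, a chemokine gene for B cells, was at 356 CPM, against 90.8 CPM (3.92-fold higher, 2.71 to 5.81), while Ccl7 was at 295 CPM, against 1205 CPM, and Il33 and Csf1 were also lower among 9 measured chemokine and cytokine genes. Of 6 measured retinoid handling genes, Crabp1 was higher, and Rbp4 and Aldh1a3, which encodes a retinoic acid producing enzyme, were lower. Rbp4 and Aldh1a3 had 1 and 2 UMIs, against 41 and 34.

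The list of Ly6a fibroblast genes, drawn up around the opposing cells, was lower as a whole by construction, with 16 of 17 measured members at least 2-fold lower and a median of -2.10. Immediate early and heat shock genes, which digestion of live tissue can induce, had a median of 0.56 over 20 measured genes. Of these 4 were at least 2-fold higher (Junb, Ier2, Ier3 and Nr4a1) and 2 lower (Atf3 and Klf6), against 9.19% and 7.38% of all genes. Junb was at 6396 CPM, against 2806 CPM in Ly6a fibroblasts and 2723 CPM in E16 mesenchyme. The summed level of the list was 24609 CPM, against 15695 CPM in Ly6a fibroblasts and 17635 CPM in E16 mesenchyme. The part of this difference in the other ratios was not tested.

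Comparison with E16 mesenchyme showed where the P4 cells differed from the embryonic ones. E16 cells had no part in the choice, although Kera, Col15a1 and Lect1 are high in the chosen cells by construction. Of 4798 measured genes, 264 were at least 2-fold higher in the P4 Kera and Col15a1 fibroblasts (5.5%) and 604 at least 2-fold lower (12.6%). The median log2 ratio of all genes was -0.12. With size factors from medians of ratios, 368 were higher and 467 lower. With each cell thinned to 1000 UMIs, 1139 genes reached the minimum, and the balance turned, to 81 higher and 62 lower.

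Most E16 mesenchyme cells passed the same choice of Kera, Col15a1 and Lect1 over Ly6a, Pi16 and Dpt. These were 88 of 183 mesenchyme cells in P4 (48.1%, 40.7 to 55.6% by the exact Clopper-Pearson method) and 81 of 97 in E16 (83.5%, 74.6 to 90.3%). Cells of the E16 library were deeper, and with each cell thinned to 1000 UMIs the shares were 40.1% (32.9 to 47.6%) in P4 and 49.5% (39.2 to 59.8%) in E16, whose intervals overlap. The opposing share differed at either depth. Ly6a fibroblasts were 42.6% of P4 mesenchyme and 6.19% of E16 mesenchyme, and 39.6% and 5.15% after thinning. Cells in neither group were 20.3% of thinned P4 mesenchyme and 45.4% of thinned E16 mesenchyme. Dissociation and capture can set such shares, and each rests on 1 library.

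Complement genes were higher in P4 for 5 of 9 measured, against 5.5% of all genes. C1s1 was found in 63.6% of the P4 cells and 24.7% of E16 mesenchyme, at 354 against 44.0 CPM (8.04-fold higher, 5.32 to 12.6). Its neighbour in function C1ra, the protease that activates C1s, was at 105 CPM, against 14.1 CPM (7.39-fold higher, 3.52 to 17.4). P4 epithelium and macrophages had 0 UMIs of C1s1 and of C1ra. C1s2 was 11.3-fold higher (6.42 to 21.5). C1s1 and C1s2 are close paralogs, and how reads that match both were counted was not tested. Serping1 was also at least 2-fold higher, and Clu was lower. In the 81 E16 cells that passed the same choice, C1s1 was at 47.4 CPM, close to its level in all E16 mesenchyme.

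Of 18 measured matrix proteases and inhibitors, 8 were at least 2-fold higher than in E16 mesenchyme, 2 lower and 8 between, with a median log2 ratio of 0.56. Among all genes, 5.5% were as far higher and 12.6% as far lower. Htra1 was 4.54-fold higher (3.64 to 5.71), Mmp2, a gelatinase gene, 3.07-fold (2.11 to 4.52) and Mmp23 4.55-fold (2.04 to 11.1). Mmp3 was 6.59-fold higher (3.69 to 12.5), but 1 cell held 41.4% of its UMIs. Of 8 measured chemokine and cytokine genes, 5 were higher and 0 lower at that fold, with a median of 1.27. Ccl11, which encodes the eosinophil chemokine eotaxin, was at 493 CPM, against 124 CPM (3.97-fold higher, 3.04 to 5.24), and Ccl7 was 9.87-fold higher (6.03 to 17.0). Cxcl12, which attracts lymphoid and progenitor cells, was at 849 CPM, against 377 CPM. Ccl2, at 257 against 72.3 CPM, rested in part on 1 cell, which held 32.3% of its UMIs. Ccl11 and C1ra stood at similar levels in Ly6a fibroblasts, at 462 and 125 CPM.

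Lpl, which encodes lipoprotein lipase, followed 2 genes at 0 UMIs in E16 mesenchyme in the naming order. It was at 707 CPM, against 86.4 CPM (8.19-fold higher, 6.10 to 11.2), and was found in 76.1% of the P4 cells and 29.9% of E16 mesenchyme. Ly6a fibroblasts had it at 783 CPM, and P4 epithelium at 6.74 CPM. Steap4 was 6.28-fold higher than in E16 mesenchyme (3.997 to 10.2), Islr 3.29-fold (2.55 to 4.25) and Plac8 3.28-fold (2.57 to 4.21). For Plac8, 1 P4 cell held 22.4% of the UMIs. Gstm2, a glutathione transferase gene, Nupr1, a stress-induced nuclear protein gene, and Tlcd2 were named too. Dbp, a transcription factor gene with a daily rhythm in many tissues, was at 85.7 CPM, against 15.7 CPM in E16 mesenchyme and 12.3 CPM in Ly6a fibroblasts. Steap4 and Dbp thus stood above both other groups, while Lpl, Gstm2, Nupr1 and Tlcd2 did not exceed their levels in Ly6a fibroblasts.

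Dcpp2 and Dcpp3, paralogous genes for secreted proteins of salivary and lacrimal acini, came first by the naming rule. Dcpp2 had 107 UMIs, or 287 CPM, against 0 in E16 mesenchyme. That is 60.8-fold higher when 3 counts over the group are taken as the floor, with a lower interval bound of 48.6. Its level was 277 CPM in Ly6a fibroblasts, 335 CPM in P4 macrophages and 285 CPM in P4 endothelium. Dcpp3 likewise was at 85.7 CPM, against 88.4 CPM in Ly6a fibroblasts and 108 CPM in macrophages. P4 epithelium had Dcpp2 at 238 CPM and Dcpp3 at 98.9 CPM. The values in the Kera and Col15a1 fibroblasts lay below those of P4 macrophages, a cell type that should lack these genes. They are not taken here as a trait of these fibroblasts, and whether they are background of the P4 library was not tested. The 12 secretory epithelium genes summed to 1139 CPM in the Kera and Col15a1 fibroblasts and 1333 CPM in P4 macrophages, and all 12 were at 0 UMIs in E16 mesenchyme.

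Of 26 measured mitosis genes, 23 were at least 2-fold lower than in E16 mesenchyme, against 12.6% of all genes, and 0 were higher, with a median log2 ratio of -1.46. The minimum of 30 UMIs was summed over both groups, so a gene could reach it through its E16 UMIs alone. That favours genes lower in P4, and the count is a description. The list held 27 genes. Top2a, which encodes the topoisomerase of mitotic chromosomes, was at 58.9 CPM, against 270.2 CPM (4.58-fold lower, 2.93 to 7.51). Mki67 had 5 UMIs, against 53, and the linker histone gene Hist1h1b had 6, against 211 (20.6-fold lower, 9.32 to 56.8). DNA replication genes had a median of -0.10, with 1 of 19 at least 2-fold lower (Rrm2) and 0 higher. Against Ly6a fibroblasts, the mitosis list had a median of 0.38 over 12 genes and the replication list 0.57 over 17. Of these 17, 3 were at least 2-fold higher (Pcna, Tyms and Gins2), against 9.19% of all genes. One cell held 44.0% of the Tyms UMIs. Cells with at least 3 detected mitosis genes were 15.9% (8.98 to 25.2%) of the Kera and Col15a1 fibroblasts, 17.9% of Ly6a fibroblasts and 49.5% (39.2 to 59.8%) of E16 mesenchyme. Thinned to 1000 UMIs, they were 6.82% (2.54 to 14.3%), 10.4% and 21.6% (13.9 to 31.2%). At that depth the shares of the Kera and Col15a1 fibroblasts and E16 mesenchyme rested on 6 and 21 cells, and their intervals overlap slightly.

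Single matrix genes were also among those named as lower or listed. Col11a1, a minor fibrillar collagen chain gene, had 7 UMIs, against 73 (6.11-fold lower, 2.82 to 15.7), and Smoc2, a calcium-binding matricellular protein gene, was 4.08-fold lower (2.67 to 6.48). Mfap4 was 4.57-fold lower (2.82 to 7.80), and in the 81 E16 cells that passed the same choice it was at 106 CPM, against 233 CPM in all E16 mesenchyme. Ptx3, a long pentraxin gene, and Rnps1, an RNA-binding protein gene, had 0 UMIs, against 42 and 31. At the floor they were 8.21-fold and 6.06-fold lower, with lower interval bounds of 6.39 and 4.64. Prc1, Cenpe, Ccna2 and Ckap5 of the division machinery, the nuclear import adaptor Kpna2, the nuclear export receptor Xpo1 and the chromatin remodeller Smarca5 completed the named genes. Most fibrillar collagen genes lay within 2-fold. Of 18 fibrillar collagen genes, 1 was at least 2-fold higher, Pcolce, which encodes an enhancer of procollagen processing, and 2 were lower, with a median of 0.10. The elastic fibre list had 1 of 18 higher and 2 lower, with a median of 0.25, and for both lists the share of lower genes was not above the 12.6% of all genes.

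**Figure D4:**
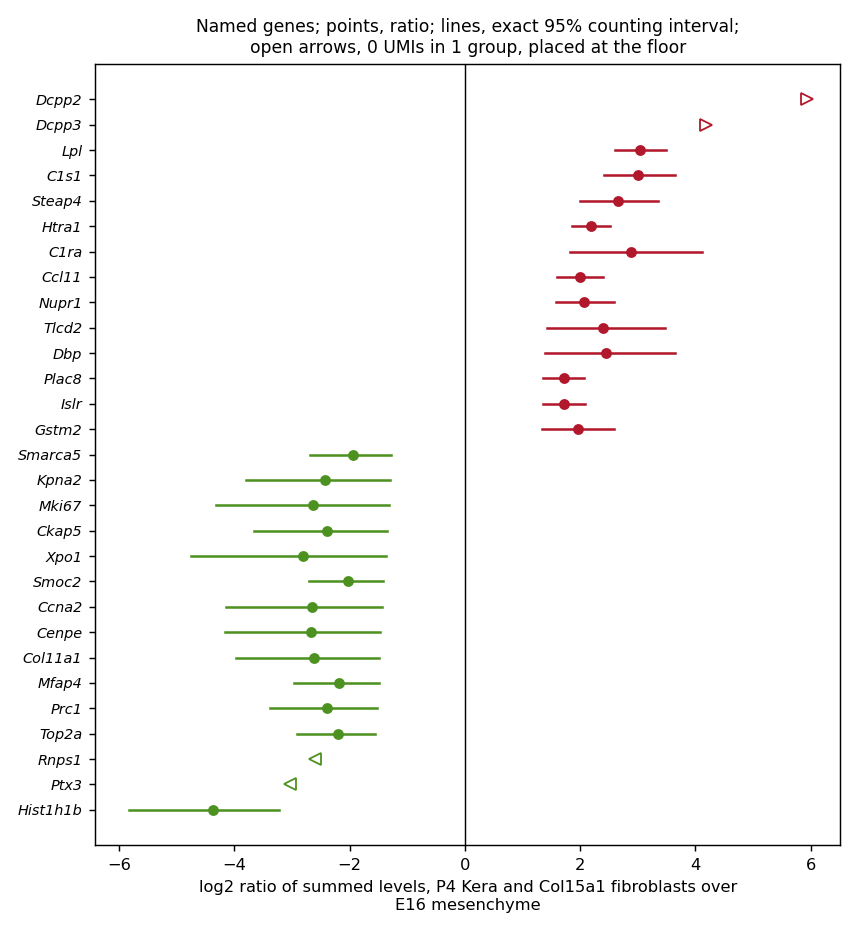
Named genes, 14 higher and 15 lower, by their log2 ratio of summed levels, P4 Kera and Col15a1 fibroblasts over E16 mesenchyme, with exact 95% counting intervals and open arrows at the floor of 3 counts for genes at 0 UMIs in 1 group. Lpl, C1s1, Steap4 and C1ra stand above 2 on this axis, and Hist1h1b is furthest below 0, at -4.37.

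Of 21 measured transcription factors of periocular and limb mesenchyme, 5 were at least 2-fold lower than in E16 mesenchyme and 1, Msx1, higher. Among all genes, 12.6% were as far lower and 5.5% as far higher. Alx1, a homeobox gene of craniofacial mesenchyme, was at 102 CPM, against 253 CPM (2.48-fold lower, 1.74 to 3.64), and Prrx1 was 2.18-fold lower (1.65 to 2.92). Igfbp7 was 2.66-fold higher (2.44 to 2.91), and Igf2, a fetal growth factor gene, was at 721 CPM, against 1269 CPM, under the 2-fold limit. Angpt2 was 2.52-fold higher (1.44 to 4.48). Rspo1 was 3.13-fold higher (1.71 to 5.90) and Sfrp2, a Wnt antagonist gene, 3.19-fold lower (2.37 to 4.36). Sfrp2 stood at 142 CPM, against 159 CPM in the 81 E16 cells that passed the same choice, and 1 P4 cell held 28.3% of its UMIs. The list of Ly6a fibroblast genes was higher than in E16 mesenchyme for 6 of 11 measured genes and lower for 0, with a median of 1.10, which was 0.36 with each cell thinned to 1000 UMIs. Clec3b, a member, was at 686 CPM, against 143 CPM.

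**Figure D5:**
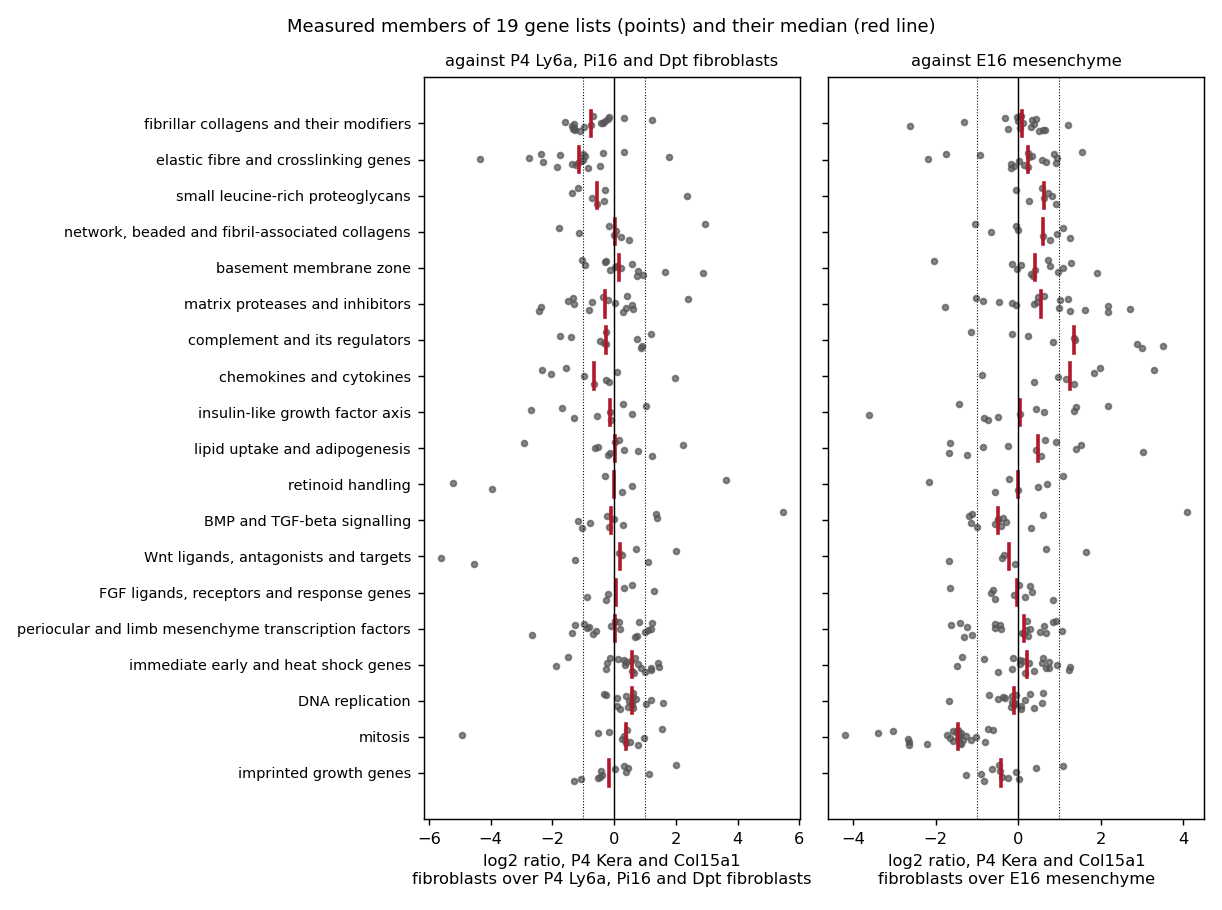
Log2 ratios of the measured genes (points) of 19 lists and their median (red line), P4 Kera and Col15a1 fibroblasts over P4 Ly6a, Pi16 and Dpt fibroblasts (left) and over E16 mesenchyme (right), with dotted lines at 2-fold. Elastic fibre genes lie mostly left of 0 in the left panel (median -1.12), complement and chemokine genes mostly right of 0 in the right panel (1.34 and 1.27), and mitosis genes left of 0 there (-1.46).

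Variation among the 88 cells was described by principal components. Among 544 genes found in at least 25% of them, with each cell thinned to 1000 UMIs, the first 2 held 2.73% and 2.68% of the variance. How much of the variance was counting noise was not computed, so the shares do not measure how alike the cells were. The first had Nfkbia, Ier2, Junb, Rps6 and Egr1 at one end, 4 of them immediate early genes, and Tmsb4x, S100a10, Rarres2, H1f0 and Psmb6 at the other. The second had the imprinted growth genes Dlk1, H19 and Meg3 with Dcn and Clec3b at one end, and Serpine2, Hnrnpk, Gm11808, Rps27a and Prdx2 at the other. Spearman correlations of the scores with depth before thinning over the 88 cells were -0.23 and 0.24, given as a description. Per 10000 UMIs, Kera had a median of 11.9 per cell, an interquartile range of 5.58 to 19.4 and a maximum of 45.6.

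Transcripts of other cell types differed in level by type. The 14 epithelial markers summed to 83.1 CPM, with Krt7, Krt15 and Cldn7 at 0, against 231 CPM in Ly6a fibroblasts and 45.6 CPM in E16 mesenchyme. The 12 endothelial markers summed to 110 CPM, and the 12 macrophage markers to 72.3 CPM with Ptprc, Csf1r and Mrc1 at 0. Pericyte and smooth muscle markers were at 305 CPM, against 231 CPM and 295 CPM. The 8 erythroid markers were at 2310 CPM, nearly all haemoglobin, against 2205 CPM and 2097 CPM, and the secretory epithelium genes at 1139 CPM, as given above. The 9 markers of perineurium and endoneurium were at 450.2 CPM, against 226 CPM and 369 CPM, with Osr2 holding 162 of the 168 UMIs and Slc2a1, Cldn1 and Tjp1 at 0. Melanocyte and skeletal muscle markers were at 18.8 and 26.8 CPM. Glial markers were at 1179 CPM, against 71.2 CPM in Ly6a fibroblasts and 267 CPM in E16 mesenchyme, but 2 cells held all but 14 of the 440 UMIs. The deepest of the 88 cells, with 12870 UMIs, held 404 of them, of which 269 were Mbp, a myelin gene, and the other held 22. Both had 0 Kera UMIs and were chosen by 1 Col15a1 UMI each, so they do not carry the leading gene of the group. Without them and without E16 cells of at least 10 glial UMIs, 315 genes were higher and 278 lower than in Ly6a fibroblasts, and 263 higher and 576 lower than in E16 mesenchyme.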

How the data were processed

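The deposited files hold whole-number UMI counts per gene and barcode for 1 library at P4 and 1 at E16, not normalized. Cell Ranger was run on the mm10 build, per the submitters' processing notes. Its version was not given in the sources used here, nor was the annotation. The 13 mitochondrial features had 0 UMIs, so dying cells could not be judged. The P4 library held 2712614 UMIs and the E16 library 2234700.

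Cells were chosen by the transcript rule in the opening, which used measured values, and the members and the 41 gene lists were chosen with earlier results of these data known. Scrublet in scanpy 1.11.5 called 1 of 406 P4 and 2 of 259 E16 cells as doublets, 0 of them among the 88 cells, and none was removed. That share of calls is too low to show that doublets were absent. Counts were summed per group and divided by its total (CPM). Genes with at least 30 UMIs over both groups were compared as a ratio with an exact conditional 95% interval, computed with scipy 1.17.1 and tested on simulated data. A gene could reach that minimum through 1 group alone. A count of 0 was set to 3 over the group. Shares have exact Clopper-Pearson intervals. Intervals cover counting error only.

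In either direction 15 genes were taken, starting with those whose interval lay furthest from 1 at its nearer bound. They needed at least 30 UMIs and detection in 20% of cells in the higher group, at most 25% of its UMIs in 1 cell, and no class of 20 or more cells of that library more than 3 times higher. Genes of the choice, sex-specific genes, haemoglobin, mitochondrial and ribosomal protein genes and provisional models were left out. Up to 4 genes per list furthest in either direction could be named, and others named beside them were picked after their values were seen. Of the genes taken as higher, 1 per comparison is not reported here. Coordinates came from GENCODE M21 (GRCm38), where 68 of 68 genes matched. Alternative scalings used edgeR 4.0.16 factors for scaling only.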

Additional observations from a re-analysis of the deposited data

Results flagged for a closer look

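Transcripts of Kera, Col15a1 and Lect1 were also present in P4 barcodes outside the comparisons. The 293 barcodes left out by the filters on detected genes and haemoglobin held 15 UMIs of the 3 genes, above the 3 counts that a count of 0 allows. Kera had 9, Col15a1 4 and Lect1 2, together 18.6 CPM of the 805980 UMIs of these barcodes, whose median haemoglobin share was 95.6%.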

How the results depend on the processing

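No paired analysis was possible because each stage was 1 library. The share of P4 mesenchyme that was Kera and Col15a1 fibroblasts was 37.7% without Kera in the choice, 39.9% without Col15a1 and 37.04% with cells thinned before both the mesenchyme criteria and the choice, against 48.1%. Gene counts moved with the UMI minimum and the depth, which change how many genes are tested. Lower genes outnumbered higher ones against Ly6a fibroblasts at 100 UMIs and when thinned, and higher ones outnumbered lower ones against E16 mesenchyme at 1 UMI and when thinned, the opposite of the counts reported, and the cause was not tested. Against Ly6a fibroblasts they were 80 higher and 108 lower at 100 UMIs, 2641 and 1916 at 1 UMI, and 79 and 101 with cells thinned to 1000 UMIs. Against E16 mesenchyme they were 85 and 119, 2490 and 2021, and 81 and 62. None of the 60 values of genes ranked by the naming rule changed direction over its alternatives, and 397 of 420 stayed within the interval reported. These alternatives changed the scaling, cell weights or depth, or left out the deepest cells or the glial cells. Other choosing rules and mesenchyme criteria were not run for these genes or for the list medians. Genes named from lists had no alternatives run. Over 68 list medians, the mitosis list against Ly6a fibroblasts moved to 1.07 without the deepest cell of each group, the lysophospholipid list to -0.70 and, against E16 mesenchyme, the secretory list to 2.84 with cells thinned. The glial list reversed. Its median of 4.86 against Ly6a fibroblasts was -0.64 without cells of at least 10 glial UMIs, an alternative chosen after seeing the data. Its median of 2.11 against E16 mesenchyme was -0.048 without those cells and -2.14 without the deepest cell of each group. The 88 cells rest on 1 library, and genes under 30 UMIs over both groups were not measured.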

Other observations

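Interferon-induced, imprinted and glycolysis genes were measured as well. Of all genes, 9.19% were at least 2-fold higher and 7.38% as far lower than in Ly6a fibroblasts. Against E16 mesenchyme these shares were 5.5% and 12.6%. Irf1, an interferon response factor gene, was at 158 CPM in the Kera and Col15a1 fibroblasts, against 61.4 CPM in Ly6a fibroblasts and 72.3 CPM in E16 mesenchyme. Of 11 measured interferon and antigen presentation genes, 2 were at least 2-fold higher and 1 lower than in Ly6a fibroblasts, and 3 higher and 0 lower than in E16 mesenchyme. Mest, an imprinted gene of fetal mesoderm, was at 753 CPM, against 341 CPM in Ly6a fibroblasts and 1412 CPM in E16 mesenchyme. H19, the imprinted RNA beside Igf2, was at 1661 CPM, against 3489 CPM in Ly6a fibroblasts and 1637 CPM in E16 mesenchyme. The imprinted list had 2 genes higher and 2 lower of 12 against Ly6a fibroblasts, and 1 higher and 1 lower of 12 against E16 mesenchyme. Of 12 measured glycolysis and hypoxia genes, 4 were at least 2-fold lower than in E16 mesenchyme and 0 higher, with a median log2 ratio of -0.66, and Slc16a3, the lactate exporter gene, had 6 UMIs, against 44. Ldha, which encodes lactate dehydrogenase, was at 989 CPM, against 407 CPM in Ly6a fibroblasts and 1098 CPM in E16 mesenchyme. Of 28 cytosolic ribosomal protein genes, 0 were past 2-fold in either comparison.

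Cebpb, a transcription factor gene of early fat cell formation, was at 1273 CPM in the Kera and Col15a1 fibroblasts, against 538 CPM in Ly6a fibroblasts and 867 CPM in E16 mesenchyme. Among 11 measured lipid genes, Cebpb and G0s2 were at least 2-fold higher than in Ly6a fibroblasts, and Gpx3, a secreted peroxidase gene, was lower, at 16.1 CPM, against 123 CPM. Over all genes the shares were 9.19% higher and 7.38% lower, and the median log2 ratio of the lipid list was 0.03. The receptor gene Pdgfrb had 25 UMIs, against 2 in Ly6a fibroblasts and 38 in E16 mesenchyme, and fell under the minimum of 30 in the comparison with Ly6a fibroblasts.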
